A study of Mus musculus with 32 samples.

Results

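The CMTM family genes, named for the chemokine-like factor and for the MARVEL domain, a bundle of membrane-spanning helices that their proteins share, were followed through the first wave of mouse spermatogenesis. The members were the 8 genes Cmtm1, Cmtm2a, Cmtm2b, Cmtm3, Cmtm4, Cmtm6, Cmtm7 and Cmtm8. They were taken by symbol and matched to Ensembl gene identifiers through the GENCODE M21 annotation. The matching used no measured value, but the members were chosen with earlier results of these data known. They are 8 of the 20368 genes in the juvenile gene table, which holds every gene that reached 3 TPM (transcripts scaled by their length and by the total of the library) in at least 1 mouse. All 8 are there, but Cmtm1 reached 3 TPM only at 18 dpp, Cmtm2b only at 16 and 18 dpp, and Cmtm2a only from 14 dpp on. These 3 genes therefore could not have entered the table without differing between ages, and counts that include them are given as a description.

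Germ cells were isolated from single male C57BL/6J mice, with no treatment or genetic change named in the labels, at 8 dpp (days postpartum; 3 mice) and at 10, 12, 14, 16 and 18 dpp (5 mice each). Over these ages the first cells pass from spermatogonia into the pachytene and diplotene stages of meiotic prophase, against a background of younger cells. The paper omitted further samples of 8 dpp that matched their age poorly in cytology and RNA, so the 3 kept were in part chosen for likeness. In addition, pachytene and diplotene spermatocytes of 9 weeks old C57BL/6J males were enriched by sedimentation at unit gravity (4 samples, each from the pooled testes of 6 mice). RNA with poly-A tails was sequenced. TPM retains no read counts, so the depth of a library is unknown and errors are given as the spread between samples.

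CMTM proteins sit in membranes and mostly act on other membrane proteins, by keeping them from degradation, by moving them to or from the cell surface, or by holding them in place. Human CMTM6 and CMTM4 keep the immune ligand PD-L1 at the cell surface, CMTM7 takes part in B cell receptor signalling, and CMTM8 promotes uptake of the EGF receptor. In mice, Cmtm2a and Cmtm2b are testis genes whose combined loss leaves sperm without the adhesion protein ADAM3 and males infertile.

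The genes form 2 clusters. On chromosome 8 of GRCm38 (mm10), running from low to high coordinates, lie Cklf (8:104250861-104264938, plus strand), the founding family member that encodes chemokine-like factor, then Cmtm2a (8:104281042-104293181, minus strand), Cmtm1 (8:104292622-104310145, minus strand), Cmtm2b (8:104322230-104330764, plus strand), Cmtm3 (8:104339410-104347672, plus strand) and Cmtm4 (8:104348191-104395807, minus strand). On chromosome 9 lie Cmtm6 (9:114731116-114749344, plus strand), Cmtm7 (9:114756836-114781856, minus strand) and Cmtm8 (9:114789345-114844156, minus strand). Several overlaps bear on the values. Cmtm1 and Cmtm2a are read from the same strand and overlap, a readthrough transcript (of Gm45711) joins exons of both, and the row that the files give to Cmtm1 (ENSMUSG00000031876) belongs to Gm45711 in GENCODE M21. On the opposite strand, the antisense gene Gm9888 overlaps Cmtm7, the small nuclear RNA gene Gm23889 overlaps Cmtm8 and the pseudogene Gm45878 overlaps Cmtm2b. No strand-specific protocol is stated, so reads of such overlapping pairs cannot be told apart.

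The readthrough transcript and Cmtm2a enter a shared exon from different exons. The 30 bases across that junction are shown for both because they mark where the exons particular to each join the shared one. The shared exon lies at 8:104292638-104292796 (minus strand), and its first bases are in capitals, with the end of the exon before it in lower case (sequence from the GRCm38 transcripts of GENCODE M21):
Cmtm2a: aagcttctgtctttgGGCTGCATGATCTCT
Gm45711: agctcccatgcccacGGCTGCATGATCTCT
Of the 982 stretches of 100 bases in the main Cmtm2a transcript, 113 (11.5%) also occur in the readthrough, and 157 (16.0%) and 61 (6.21%) in 2 of the 3 Cmtm1 transcripts. In all, 27.5% of its stretches occur in at least 1 of these transcripts. The Cmtm2b transcript shares no stretch of 100 bases with any of them, and its longest run identical to Cmtm2a is 93 bases. The values of the Cmtm1 row, and to a lesser degree those of Cmtm2a, are therefore uncertain in how the authors' counting split shared reads. The study's own qRT-PCR primers for Cmtm2a illustrate the overlap. They are shown because the first lies in the shared exon:
Cmtm2a-F: gcggcaatctgcatattctt
Cmtm2a-R: acctccaaggaacacacagg
The forward primer (8:104292699-104292718) matched 5 annotated transcripts of Cmtm2a, Cmtm1 and Gm45711, whereas the reverse primer (8:104283906-104283925) matched only the main Cmtm2a transcript. In Cmtm2b the best sites had 7 and 6 mismatches, respectively.

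Cmtm2a and Cmtm2b have almost the same promoter. Over the windows from 250 bases before to 50 bases after their RefSeq starts (GRCm38.p6), 291 of 297 aligned bases were identical (98.0%). All other pairs of members lay between 52.8% and 66.8%. The transcripts themselves are less alike. Between their exons 2, of 159 bases each, 115 bases were identical (72.3%), and between their exons 3, of 102 bases each, 71 (69.6%). A matching piece of each promoter is shown, with the single base that differs in capitals (8:104293317-104293346 on the minus strand and 8:104322065-104322094 on the plus strand):
Cmtm2a: actcctttttgaggGcggcctggctaggac
Cmtm2b: actcctttttgaggAcggcctggctaggac

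Across the 28 juvenile mice, Cmtm2a, Cmtm2b and Cmtm1 rose from levels near 0, Cmtm3, Cmtm4, Cmtm6 and Cmtm7 fell, and Cmtm8 passed no test. From 8 to 18 dpp, 7 of the 8 members changed in limma at an adjusted p under 0.05, 3 upward and 4 downward. This threshold was passed by 68.2% of all 20368 genes in the same comparison (31.8% upward and 36.3% downward), so that a change as such was common. The comparison may also cross pools of libraries, as described below. For each of these 7 genes the mice of 8 and 18 dpp did not overlap, against 29.0% of all genes with every 18 dpp mouse higher and 32.0% with every 18 dpp mouse lower. The median log2 fold change was -0.38 over the members and -0.09 over all genes.

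**Figure D1:**
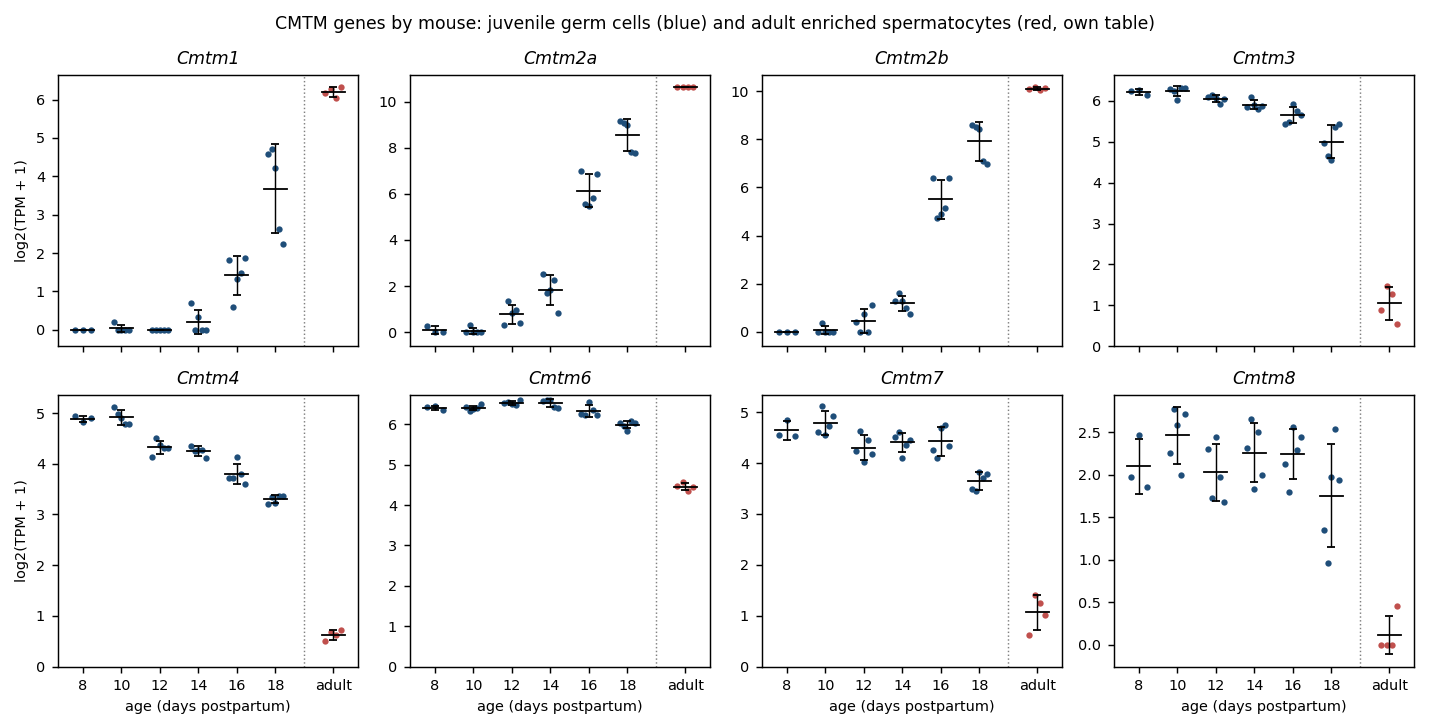
Level of each member as log2(TPM + 1) (vertical axis, its own scale in each panel) by age in days postpartum (horizontal axis), with 1 point per mouse or adult sample and the mean and SD as line and bar. Cmtm1, Cmtm2a and Cmtm2b lie near 0 up to 12 dpp and are highest in the adult samples (red), which come from a separately normalized table, and Cmtm3, Cmtm4, Cmtm6 and Cmtm7 are lowest there.

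Cmtm2a encodes a protein that was also described as a repressor of the androgen receptor. It was listed at 0 in 2 of 3 mice at 8 dpp (0.22 TPM in mouse 1) and in 4 of 5 at 10 dpp (0.24 TPM in mouse 2). At 12 dpp all 5 mice had a value, from 0.24 to 1.52 TPM. The mice of 14 dpp had 4.75, 2.26, 2.51, 3.83 and 0.80 TPM. At 16 dpp the values were 126.5, 46.4, 43.5, 55.9 and 114 TPM in mice 1 to 5, all of them far above every mouse of 14 dpp. At 18 dpp they were 573, 528, 508, 224 and 217 TPM, with mice 1 to 3 well above mice 4 and 5 and all 5 above every mouse of 16 dpp.

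Cmtm2b, its neighbour on the other strand, was at 0 in all 3 mice of 8 dpp, in 4 of 5 mice of 10 dpp and in 2 of 5 mice of 12 dpp. All 5 mice of 14 dpp had between 0.68 and 2.01 TPM. The 16 dpp values were 84.0, 25.8, 28.9, 34.2 and 81.9 TPM, and those of 18 dpp were 386, 365, 345, 135 and 125 TPM. As for Cmtm2a, mice 1 and 5 were high at 16 dpp and mice 1 to 3 at 18 dpp.

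Both genes rose mainly at 2 steps. Between 14 and 16 dpp the mean of Cmtm2a went from 2.83 ± 1.52 to 77.2 ± 39.7 TPM (SD, n = 5 and 5), a 27.3-fold ratio of means, and that of Cmtm2b from 1.31 ± 0.51 to 51.0 ± 29.4 TPM, a 39.0-fold ratio. In limma, on the log2(TPM + 1) scale, which understates the change of low genes, this was 4.31 (SE 0.32, adjusted p = 4.1e-10) for Cmtm2a and 4.34 (SE 0.33, adjusted p = 5.0e-10) for Cmtm2b. Between 16 and 18 dpp the means went on to 410 ± 175 TPM for Cmtm2a and 271 ± 129 TPM for Cmtm2b, ratios of 5.31 and 5.32 (limma, adjusted p = 2.3e-06 and 2.7e-06). Since the table admitted Cmtm2b through 16 and 18 dpp alone and Cmtm2a through 14 dpp and later ages, these p-values are conditioned by its filter. In a limma fit to summed transcripts with no filter on low genes, the adjusted p from 14 to 16 dpp was 7.9e-09 for Cmtm2a and 9.1e-09 for Cmtm2b, and from 16 to 18 dpp 1.3e-05 and 1.5e-05. By their index barcodes the libraries cannot all have been pooled together, since barcodes given to mice of 8 to 12 dpp recur in mice of 14 to 18 dpp. How the ages were divided among pools is not stated. Whether these or any other steps between ages cross pools is therefore unknown.

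The earlier steps were not called. From 12 to 14 dpp the limma log2 fold change was 1.07 for Cmtm2a (SE 0.32, unadjusted p = 0.00261, adjusted p = 0.196) and 0.73 for Cmtm2b (SE 0.33, unadjusted p = 0.0342, adjusted p = 0.456), and the mice of the 2 ages overlapped. None of the 8 members was called at this step, where limma called 0.172% of all genes (35 genes, with 1962 at an unadjusted p under 0.05). From 8 to 10 dpp, likewise, no member was called by limma or had an unadjusted p under 0.05, against 1.20% of all genes called (245 genes, with 2337 at an unadjusted p under 0.05).

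Grouped by number, mice 1 to 3 and those with higher numbers gave ratios of unlike size, in opposite directions at the 2 steps, and this was not tested. Equal numbers at different ages mark different mice. These ratios, here and below, therefore set unrelated mice side by side and follow no mouse over time. From 14 to 16 dpp the ratio of means of Cmtm2a was 22.7 in mice 1 to 3 and 36.6 in the later-numbered mice, and that of Cmtm2b 28.4 and 70.4, against 14 dpp levels near 1 to 3 TPM. From 16 to 18 dpp the ratio for Cmtm2a was 7.43 in mice 1 to 3 (72.1 to 536 TPM) and 2.60 in mice 4 and 5 (84.8 to 220 TPM). For Cmtm2b these ratios were 7.90 and 2.24. The summed TPM of 6 pachytene marker genes (Hist1h1t, Pgk2, Ldhc, Ccna1, Piwil1 and Hspa2) moved with them, at 4454 to 4606 TPM in mice 1 to 3 of 18 dpp against 2505 and 2633 TPM in mice 5 and 4. At 16 dpp the marker sum was also highest in mice 1 and 5 (2063 and 1582 TPM against 989 to 1166 TPM), the mice with the most Cmtm2a. At 8 dpp it was 35.1 to 43.7 TPM, with Pgk2 at 0. In bulk samples more cells of a type and more RNA per cell cannot be told apart, and the part of cell composition in the rise was not tested.

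**Figure D2:**
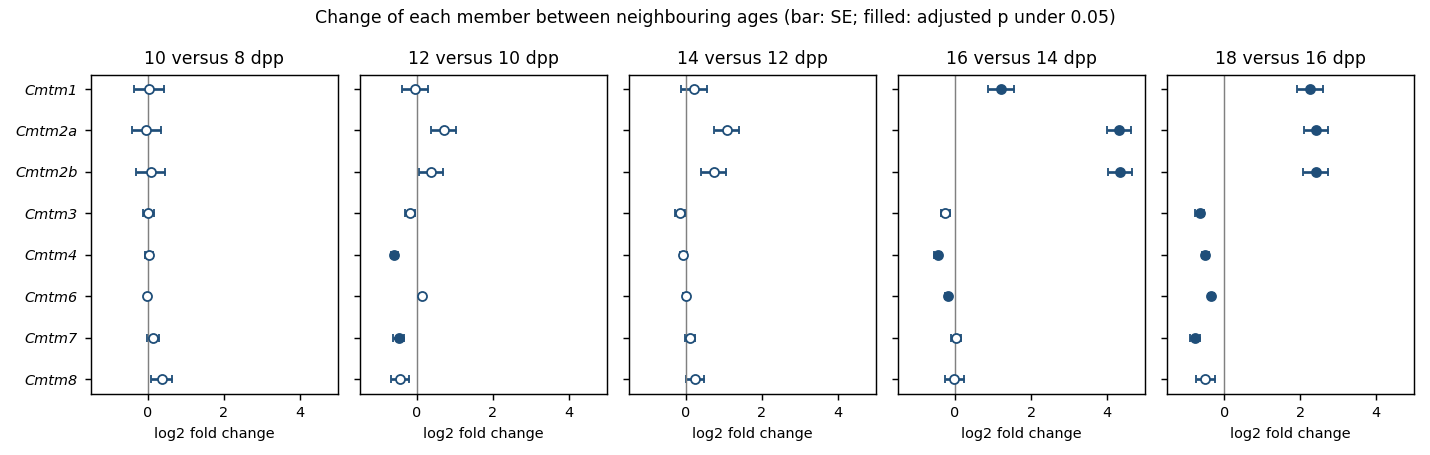
limma log2 fold change of log2(TPM + 1) (horizontal axis) of the 8 members (vertical axis) at each step between neighbouring ages, with the SE as bar and filled points at an adjusted p under 0.05. Cmtm2a and Cmtm2b stand at 4.31 and 4.34 from 14 to 16 dpp, no point is filled from 8 to 10 or from 12 to 14 dpp, and 4 members fall from 16 to 18 dpp.

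The ratio of the paralogs was similar at both ages at which all mice had much of both. Cmtm2b made up 64.4% ± 6.20 of the TPM of Cmtm2a at 16 dpp (SD, n = 5, from 55.6% to 72.1%), 64.5% ± 5.05 at 18 dpp (n = 5, from 57.9% to 69.0%) and 70.3% ± 3.01 in the adult samples (n = 4, from 67.6% to 74.0%). The difference Cmtm2a minus Cmtm2b in log2 TPM, with no pseudocount, was 0.64 ± 0.14 at 16 dpp and 0.64 ± 0.12 at 18 dpp, and a two-sided exact permutation test found no difference (18 minus 16 dpp -0.0052, p = 0.960). On the log2(TPM + 1) scale the difference was 0.63 ± 0.11 at 18 dpp and -0.01 ± 0.03 at 10 dpp, a change of 0.65 (two-sided exact permutation test, p = 0.00794, the smallest that 5 against 5 mice allow). At 10 dpp both genes were at 0 in 4 of 5 mice, so this change says that Cmtm2a ended higher than Cmtm2b and does not compare factors of increase. With both genes near 0 at 10 dpp, any excess of Cmtm2a in all 5 mice of 18 dpp gives this p, which therefore carries no further weight. Over the 28 mice, whose ages both genes follow, the Pearson correlation of the 2 genes was 0.991.

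The Cmtm1 row rose to a far lower level, and at 18 dpp most of it was assigned to the readthrough transcript. It was listed at 0 in all mice of 8 and 12 dpp, in 4 of 5 of 10 dpp and in 3 of 5 of 14 dpp, where mice 1 and 3 had 0.63 and 0.25 TPM. The 16 dpp mice had 2.55, 0.52, 1.52, 1.77 and 2.67 TPM, and the 18 dpp mice 22.9, 25.3, 17.6, 5.17 and 3.70 TPM. The same 3 mice were high as for Cmtm2a and Cmtm2b. The limma log2 fold change was 1.22 from 14 to 16 dpp (SE 0.34, adjusted p = 0.00973) and 2.25 from 16 to 18 dpp (SE 0.34, adjusted p = 7.2e-06). The row is in the table only through the mice of 18 dpp, and with no filter on low genes the limma adjusted p was 0.0304 and 3.3e-05. Its ratio of 18 to 16 dpp was 14.4 in mice 1 to 3 and 2.00 in mice 4 and 5.

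Split by transcript, the readthrough was assigned 82.3% ± 8.84 of the row at 18 dpp (SD, n = 5), with 17.1, 19.0, 13.9, 4.89 and 3.27 TPM. Of its stretches of 100 bases, 92.1% occur in at least 1 of the other transcripts compared above. For the 3 Cmtm1 transcripts this share is 75.5% to 84.2%. The split, and the sum of the Cmtm1 transcripts, therefore depend on how shared reads were assigned. The 3 annotated Cmtm1 transcripts together had 5.82, 6.32, 2.57, 0.28 and 0.43 TPM. At 16 dpp they had a value in mice 1 and 3 alone (0.63 and 0.42 TPM). Taken as this sum, Cmtm1 was not called from 14 to 16 dpp (log2 fold change 0.11, limma adjusted p = 0.844). The row amounted to 2.43% ± 0.94 of the TPM of Cmtm2a at 16 dpp, 3.26% ± 1.25 at 18 dpp and 4.63% ± 0.40 in the adult samples. Whether it rose later than Cmtm2a was not tested.

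**Figure D3:**
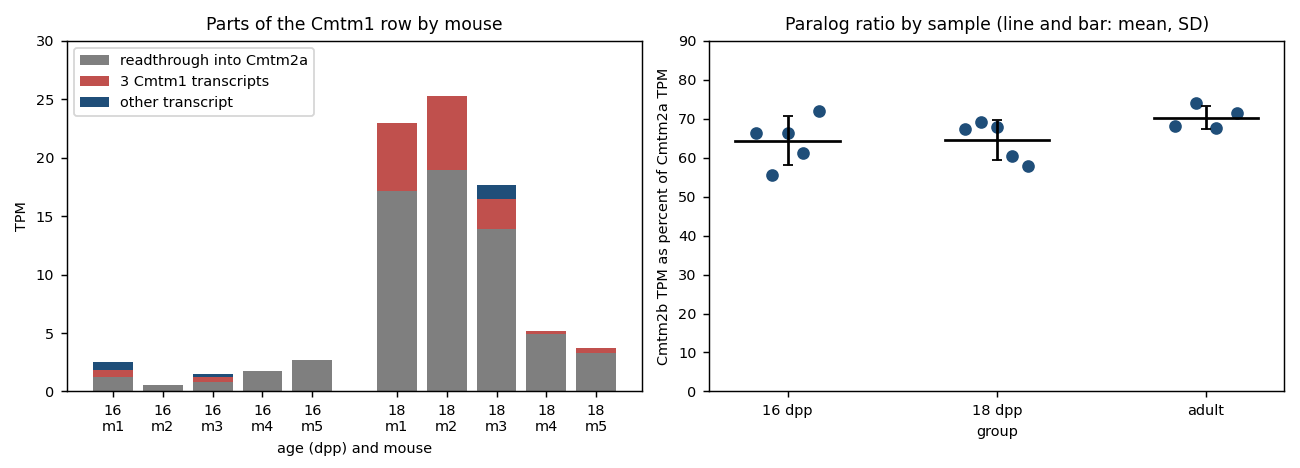
Left, the Cmtm1 row by mouse (m1 to m5) at 16 and 18 dpp in TPM, stacked by transcript as the authors' counting assigned it. The parts are the readthrough, the larger part in all mice of 18 dpp, the 3 Cmtm1 transcripts and 1 further transcript. Right, Cmtm2b as a percent of Cmtm2a in each sample, with the mean and SD (64.4%, 64.5% and 70.3% at 16 dpp, 18 dpp and in adults).

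Cmtm3 and Cmtm4 lie beside the rising genes on chromosome 8 and went the other way. Cmtm3, a widely expressed member, had 74.4, 76.1 and 69.6 TPM in the mice of 8 dpp. At 18 dpp the mice had 30.5, 24.2, 22.5, 40.3 and 42.6 TPM, all lower than every mouse of 8 dpp. The group means were 73.4 ± 3.40 and 32.0 ± 9.15 TPM (SD, n = 3 and 5), and the limma log2 fold change was -1.22 (SE 0.14, adjusted p = 3.2e-08). The fall from 16 dpp (49.6 ± 7.18 TPM) to 18 dpp was called (-0.65, SE 0.13, adjusted p = 0.000116), while the ages before it showed smaller steps that were not called. Mice 1 to 3 of 18 dpp were lower than mice 4 and 5, the reverse of their order for Cmtm2a, and the ratio of 18 to 16 dpp was 0.529 in mice 1 to 3 and 0.812 in mice 4 and 5.

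Cmtm4, the closest relative of Cmtm6, fell in 3 called steps. Its levels were 29.6, 27.3 and 28.9 TPM at 8 dpp, 26.4 to 34.0 TPM (median 29.0) at 10 dpp and 16.7 to 21.6 TPM (median 18.7) at 12 dpp. No mouse of 12 dpp reached the lowest of 10 dpp. The means of 14, 16 and 18 dpp were 18.1 ± 1.16, 13.0 ± 2.11 and 8.86 ± 0.53 TPM (SD, n = 5 each). The limma log2 fold changes were -0.59 from 10 to 12 dpp (SE 0.088, adjusted p = 1.5e-05), -0.46 from 14 to 16 dpp (SE 0.088, adjusted p = 0.000336) and -0.50 from 16 to 18 dpp (SE 0.088, adjusted p = 4.5e-05). Over the whole range Cmtm4 fell to 0.310 of its 8 dpp mean (-1.59, SE 0.10, adjusted p = 2.2e-13).

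Cmtm6 was the most abundant member from 8 to 14 dpp and changed least among those called. The mice of 8 dpp had 85.3, 85.9 and 81.0 TPM. The mean of 12 dpp was 91.8 ± 3.33 TPM and that of 14 dpp 91.2 ± 5.80 TPM (SD, n = 5 each). The mice of 18 dpp had 64.7, 61.6, 56.4, 66.2 and 64.2 TPM, all lower than any mouse of another juvenile age. The change from 8 to 18 dpp was -0.42 (SE 0.069, adjusted p = 5.3e-06). The step from 14 to 16 dpp was smaller (-0.20, SE 0.060, adjusted p = 0.0151), the mice overlapped, and the call ended with median-of-ratios factors (-0.14, adjusted p = 0.121).

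Cmtm7 fell at 2 steps. Its mean was 24.1 ± 3.33 TPM at 8 dpp (n = 3), 26.9 ± 4.63 TPM at 10 dpp and between 19.0 and 20.8 TPM from 12 to 16 dpp (n = 5 each). At 18 dpp the 5 mice had 10.2, 9.89, 13.1, 12.1 and 12.9 TPM, below all mice of all other juvenile ages. The limma log2 fold change was -0.48 from 10 to 12 dpp (SE 0.14, adjusted p = 0.0118) and -0.78 from 16 to 18 dpp (SE 0.14, adjusted p = 4.0e-05). The earlier of these calls ended with mice 1 to 3 alone (-0.47, limma adjusted p = 0.118). It had like ratios of 18 to 16 dpp in mice 1 to 3 (0.562) and in mice 4 and 5 (0.553). It was also the only member with 2 transcripts abundant enough for a test of transcript use. Its main transcript held 91.1% ± 1.89 of the gene at 8 dpp and 90.0% ± 10.6 at 18 dpp, and the change between 8 and 10 dpp and 16 and 18 dpp was -1.46 points (SE 3.17, limma adjusted p = 0.832), where 2.30% of all transcripts tested were called.

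Cmtm8 was the lowest of the members present at 8 dpp. It had 2.92, 4.54 and 2.62 TPM at 8 dpp and 1.55, 0.95, 2.92, 4.79 and 2.82 TPM at 18 dpp, with overlapping mice. The limma log2 fold change was -0.35 (SE 0.28, adjusted p = 0.271), and no step was called. In the test for any difference among the 6 ages its adjusted p was 0.124, while the other 7 members passed, as did 77.6% of all genes. At 2 to 5 TPM its spread between mice was wide (24.8% to 56.8% of the mean).

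By step, 2 members were called from 10 to 12 dpp (Cmtm4 and Cmtm7, both lower, against 21.4% of all genes called, 12.0% higher and 9.39% lower), 5 from 14 to 16 dpp (3 higher and 2 lower, against 24.0% called, 12.7% higher and 11.3% lower) and 7 from 16 to 18 dpp (3 higher and 4 lower, against 54.0% called, 23.4% higher and 30.6% lower). From 16 to 18 dpp the mice did not overlap for Cmtm1, Cmtm2a and Cmtm2b (13.2% of all genes with every mouse of 18 dpp higher) or for Cmtm4, Cmtm6 and Cmtm7 (12.4% with every mouse lower). From 14 to 16 dpp this held for Cmtm2a and Cmtm2b alone (10.7% of all genes higher) and from 10 to 12 dpp for Cmtm4 alone (7.64% lower).

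**Figure D4:**
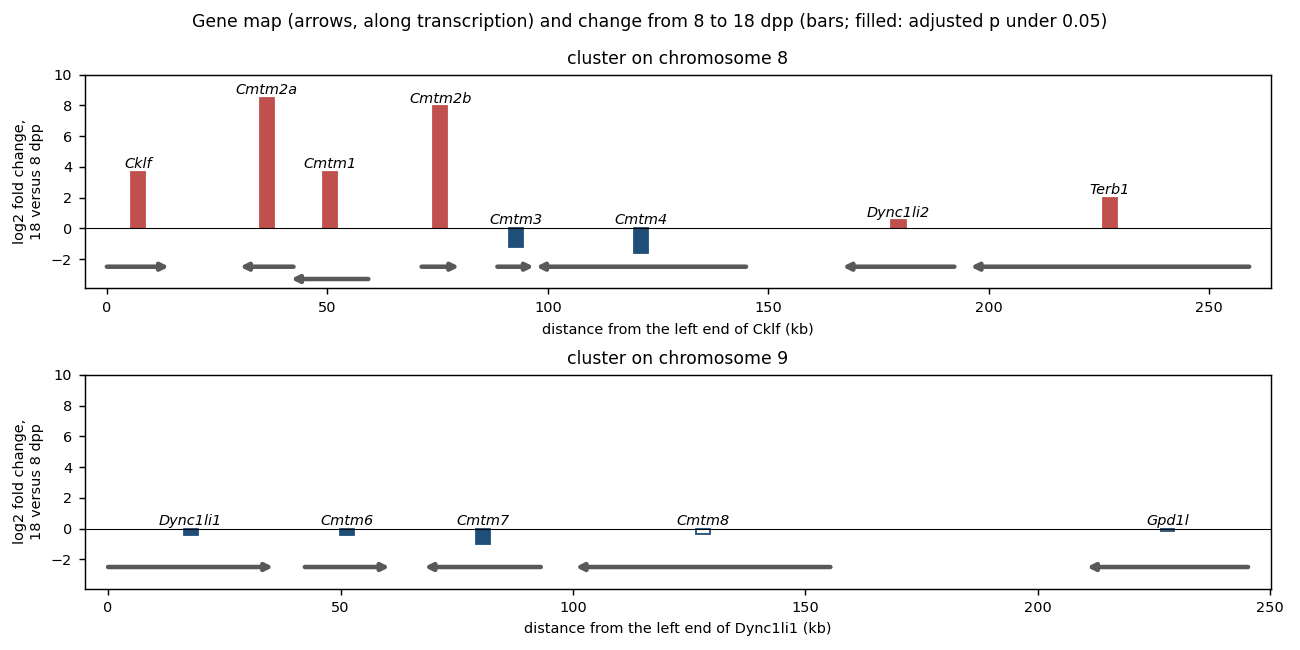
Map of the 2 clusters with distance in kb from the left end of the leftmost gene shown (horizontal axis), arrows pointing along transcription and bars for the log2 fold change from 8 to 18 dpp (vertical axis; filled at an adjusted p under 0.05). On chromosome 8 the bars of Cklf, Cmtm2a, Cmtm1 and Cmtm2b point up and those of Cmtm3 and Cmtm4 down, and on chromosome 9 no bar exceeds 1 in size.

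Marker genes of Sertoli cells and of spermatogonia mostly fell beside the falling members, and those of other cells went different ways. The summed TPM of 8 Sertoli cell genes (Amh, Sox9, Wt1, Cldn11, Rhox5, Aard, Dhh and Gata4) was 4313 to 4683 at 8 dpp, 2203 to 2841 at 16 dpp and 1410 to 1952 at 18 dpp. Of these genes 7 fell and Rhox5 rose from 8 to 18 dpp, where 36.3% of all genes fell and 31.8% rose. None of the 8 was at 0 in all samples of an age, so the libraries labelled germ cells also held transcripts of Sertoli cell genes. Of 6 spermatogonial genes, 5 fell and none rose (summed TPM 497 to 587 at 8 dpp and 205 to 282 at 18 dpp). At 18 dpp mice 4 and 5 had the higher Sertoli sums (1952 and 1926 against 1410 to 1455 TPM). They were also higher in the spermatogonial sum (275 and 282 against 205 to 218 TPM) and the macrophage sum (90.3 and 102 against 55.2 to 63.05 TPM). Cmtm3 was higher in these mice too (40.3 and 42.6 against 22.5 to 30.5 TPM). Cmtm4 was higher by little (9.31 and 9.30 against 8.22 to 9.12 TPM), and for Cmtm6 and Cmtm7 these mice overlapped mice 1 to 3. Of 5 peritubular genes, 1 fell (summed TPM 1051 to 1160 at 8 dpp and 524 to 1034 at 18 dpp), of 4 endothelial genes 1 rose and 1 fell (50.2 to 56.6 and 31.8 to 65.2 TPM), and of 3 red blood cell genes tested none was called (126 to 418 and 148 to 197 TPM). Macrophage genes went the other way, with 5 of 6 higher at 18 dpp (31.3 to 42.7 and 55.2 to 102 TPM), 3 of 6 Leydig genes rose (175 to 198 and 169 to 472 TPM), and the 1 lymphocyte gene tested was not called (3.68 to 6.43 and 4.57 to 10.4 TPM). Of genes of early prophase, 5 of 5 rose (199 to 293 and 769 to 951 TPM). The part of any of these cells in the fall of Cmtm3, Cmtm4, Cmtm6 and Cmtm7 was not tested.

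In the adult pachytene and diplotene spermatocytes the members lay far apart. Cmtm2a had 1589, 1573, 1571 and 1582 TPM and Cmtm2b 1081, 1164, 1062 and 1130 TPM. Among 21274 protein-coding genes these were the ranks 44 and 75 from the highest. Cmtm1 had 70.6, 76.9, 65.3 and 79.3 TPM, and no split by transcript was used for it here. The SD of Cmtm2a was 0.529% of the mean over these samples, each a pool of 6 mice, and 42.6% over the single mice of 18 dpp, so that the 2 spreads are of unlike units.

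The other members were lower in these cells. Cmtm6 kept 21.1, 22.6, 19.4 and 20.8 TPM, rank 5434 of the 21274 genes. The remaining members had ranks from 11583 (Cmtm7) to 15607 (Cmtm8). Cmtm3 had 0.85, 1.80, 1.41 and 0.47 TPM, Cmtm4 0.41 to 0.64 TPM (median 0.575) and Cmtm7 0.53 to 1.65 TPM (median 1.20). Cmtm8 was at 0 in 3 samples and at 0.37 TPM in the fourth. The Sertoli sum was 74.4 to 113 TPM there, the spermatogonial sum 8.48 to 10.8 TPM, the pachytene sum 9539 to 9761 TPM and the sum of 6 spermatid genes 872 to 1189 TPM, against 6.13 to 17.0 TPM at 18 dpp. The adult table was normalized apart from the juvenile tables, so these levels are set side by side with no test.

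The make-up of the family thus turned over. Summed over the 8 genes, the level was 214 ± 8.90 TPM at 8 dpp (SD, n = 3), 197 ± 12.6 TPM at 14 dpp, 297 ± 61.0 TPM at 16 dpp and 814 ± 301 TPM at 18 dpp (n = 5 each), and 2785 ± 52.8 TPM in adults (n = 4). Cmtm2a and Cmtm2b supplied 0.0341% of it in mice of 8 dpp, 2.08% ± 0.83 in those of 14 dpp, 41.1% ± 14.3 in those of 16 dpp, 81.2% ± 8.46 in those of 18 dpp and 96.5% ± 0.20 in adults. Cmtm6 went from 39.4% ± 0.57 at 8 dpp to 8.89% ± 4.10 at 18 dpp and 0.752% ± 0.035 in adults.

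**Figure D5:**
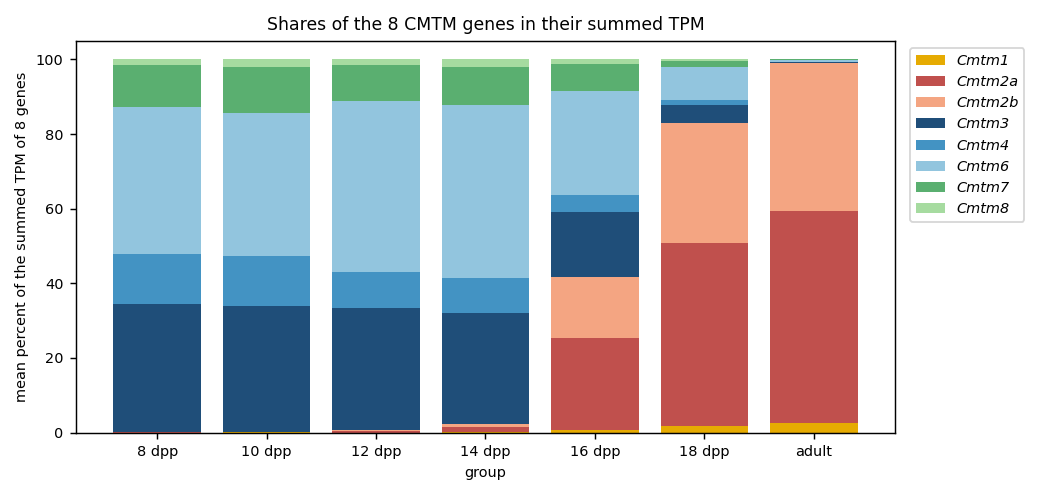
Mean percent that each of the 8 genes contributed to their summed TPM (vertical axis) at each age and in adults (horizontal axis). Cmtm3 and Cmtm6 make up most of the sum up to 14 dpp and Cmtm2a and Cmtm2b 81.2% at 18 dpp and 96.5% in adults.

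In the order of levels, which TPM allows because it is scaled by length, Cmtm6 was first at 8, 10, 12 and 14 dpp, followed by Cmtm3, with no overlap between their mice at any of these ages. Cmtm4 and Cmtm7 came next and overlapped each other, and Cmtm8 followed. At 16 dpp Cmtm6, Cmtm2a, Cmtm2b and Cmtm3 formed the top, and each overlapped the next in order. At 18 dpp Cmtm2a and Cmtm2b, which overlapped, were apart from Cmtm6, and Cmtm6 from Cmtm3. The overlap of Cmtm2a and Cmtm2b is between different mice. Within each mouse Cmtm2a was the higher, by a ratio of 1.39 to 1.80 at 16 dpp and 1.45 to 1.73 at 18 dpp. In adults the first 4 (Cmtm2a, Cmtm2b, Cmtm1 and Cmtm6) were each apart from the next.

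Of the other family genes, Cklf rose with its neighbours and Cmtm5 was almost absent. Cklf had 5.64, 4.60 and 5.24 TPM at 8 dpp, 26.5 to 45.3 TPM (median 40.1) at 16 dpp and 106, 99.7, 96.1, 58.0 and 48.7 TPM at 18 dpp, and 159 to 175 TPM in adults. Its limma log2 fold change from 8 to 18 dpp was 3.68 (SE 0.21, adjusted p = 2.2e-14). It was already higher at 12 than at 10 dpp (0.74, SE 0.18, adjusted p = 0.00376), with no overlap between mice (10.0% of all genes with every mouse of 12 dpp higher), a step at which Cmtm2a was not called (0.70, SE 0.32, adjusted p = 0.126). Whether the 2 genes differ at this step was not tested. Cmtm5, by summed transcripts, did not exceed 0.70 TPM in any mouse and was at 0 in the 4 adult samples.

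Within 100 kb of a member lie 9 other protein-coding genes, Cklf included, of which 7 were tested. From 8 to 18 dpp 3 of them rose, 1 fell and 3 were not called, with a median of 0.03 (31.8% of all genes rose and 36.3% fell). On chromosome 8, Terb1, which ties telomeres to the nuclear envelope in meiosis, rose by 1.95 (SE 0.18, limma adjusted p = 3.0e-10), and Dync1li2, a dynein light intermediate chain, by 0.51. On chromosome 9 its paralog Dync1li1, next to Cmtm6, had -0.39 (SE 0.073, limma adjusted p = 3.5e-05), and Gpd1l, the nearest on the side of Cmtm8, had -0.13 and was not called (limma adjusted p = 0.317). Gm11020, 443 bases from Cmtm4, was not in the gene table.

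Genes that act with Cmtm2a and Cmtm2b on the ADAM3 protein of sperm mostly rose. Of 13 genes listed for the maturation of ADAM3, 11 were tested, and 7 rose, 2 fell and 2 were not called from 8 to 18 dpp, with a median of 2.22. The 3 TPM filter of the table drops genes low at all ages and keeps genes such as Adam3 and Adam1b through the late ages alone, so this count and median are in part set by it. The called changes of largest size were those of Adam2 (7.66), Adam3 (7.48), Adam1b (5.36), all sperm surface proteins, and Clgn (5.20), the chaperone of their assembly. Ace and Tpst2 fell (-0.64 and -0.39), and Adam1a and Calr3 were not called (0.13 and -0.24). Of all genes tested, 31.8% rose and 36.3% fell.

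Most tested genes of the wider MARVEL-domain group fell. Of 19 outside the CMTM family, 10 were tested, and 7 fell, 1 rose and 2 were not called, with a median of -0.99. Of all genes, 36.3% fell and 31.8% rose. The others of the 19 were not in the gene table, whose filter drops genes low at all ages. Syngr1, a synaptogyrin, fell by 1.54 on the log2 scale and Ocln (occludin, a tight junction protein) by 1.46. Plp2 had -1.19. Syngr4, the testis synaptogyrin, rose by 4.31 (SE 0.20, limma adjusted p = 7.0e-16) and was the 1 tested gene of the group to do so. Of 5 partners described for CMTM proteins in other cells, 4 were tested (Cd274, which encodes PD-L1, Egfr, Cdh5 and Il17rc). None of them was called by limma or had an unadjusted p under 0.05, with log2 fold changes from -0.29 to 0.24. Of all genes, 68.2% were called.

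The genes most like each member across the 28 mice were found by Pearson correlation of log2(TPM + 1), which here mainly measures a shared course over age. For Cmtm2a these were Tdrd6 (0.996), 1700029F12Rik (0.996) and Cdkl4 (0.996), and for Cmtm2b Ppp3r2 (0.995), 1700074P13Rik (0.995) and Slco6c1 (0.994). Cmtm1 was most like Prss39 (0.991), Flywch1 (0.990) and Ccdc154 (0.988). Among the falling members, Cmtm4 was most like Nedd9 (0.989), Dag1 (0.988) and Notch2 (0.987), Cmtm3 most like Pea15a (0.973), Got2 (0.971) and Tspan14 (0.970), and Cmtm6 most like Gm14569 (0.959), Abhd4 (0.956) and Cgn (0.949). Cmtm7 and Cmtm8 had looser matches, led by Pdcd6 (0.865) and Unc93b1 (0.723).

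The promoters of the rising members held fewer CG pairs for their base composition than those of the other 5, a difference that was not tested. The windows of Cmtm2a and Cmtm2b are 98.0% identical over their aligned bases and so are hardly separate sequences. The Cmtm3 window (8:104340344-104340643) lies inside the span given above for that gene and does not cover the start of the span. The Cmtm7 window (9:114781944-114782243) lies outside the span of its gene, before the start, and does not cover it either. The 300-base windows of Cmtm1, Cmtm2a and Cmtm2b had observed-to-expected ratios of CG of 0.324, 0.199 and 0.238, below the median of all 32851 promoter windows (0.384). Those of Cmtm3, Cmtm4, Cmtm6, Cmtm7 and Cmtm8 had ratios of 0.662, 0.854, 1.09, 0.538 and 0.670, all above it. The share of G and C did not separate them, at 53.7%, 58.7% and 58.7% in the first 3 and from 55.7% (Cmtm6) to 79.7% (Cmtm4) in the others. As an example of each kind, the 250 bases before the start of Cmtm2b (8:104321977-104322226, plus strand) and of Cmtm4 (8:104395808-104396057, minus strand) are given in RefSeq sequence of GRCm38.p6, with matches to the searched motifs in capitals:
Cmtm2b: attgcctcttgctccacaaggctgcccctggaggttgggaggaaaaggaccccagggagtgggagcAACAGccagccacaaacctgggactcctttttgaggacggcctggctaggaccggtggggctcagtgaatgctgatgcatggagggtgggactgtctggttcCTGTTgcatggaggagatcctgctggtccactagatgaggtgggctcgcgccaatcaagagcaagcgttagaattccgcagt
Cmtm4: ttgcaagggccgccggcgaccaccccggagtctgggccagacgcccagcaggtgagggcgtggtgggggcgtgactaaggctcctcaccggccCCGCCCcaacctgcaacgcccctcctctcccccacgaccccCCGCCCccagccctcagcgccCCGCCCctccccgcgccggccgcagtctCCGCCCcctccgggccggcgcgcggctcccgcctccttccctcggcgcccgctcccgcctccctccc
Motifs were searched on both strands. The core motif of MYB factors, AACNG, was in 7 of 8 windows (not in that of Cmtm4) and in 80.3% of all promoters. The GC box, GGGCGG, was in 6 (not in those of Cmtm1 and Cmtm2b) and in 35.7% of all promoters, and the base in capitals in the promoter pieces above lies in this motif of Cmtm2a. The longer MYB motif AACNGTT, the CRE TGACGTCA, the RFX half-site GTTGCC and the TATA box TATAAA were in none of the 8 windows, against 4.45%, 1.79%, 12.5% and 13.6% of all promoters. The longer MYB motif contains the core.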

How the data were processed

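Germ cells of 28 juvenile C57BL/6J mice and 4 adult samples of enriched spermatocytes were measured by RNA-seq. The authors sequenced poly-A libraries as 100 bp paired-end reads, used Bowtie 1.0.0 for alignment to a transcript set made of Ensembl 75, NONCODE 4 and piRNA precursors, and took TPM from RSEM 1.2.8 (versions per the submitters' processing notes). The deposited transcript table (162243 transcripts) and adult table hold TPM as such. For the deposited gene table of juvenile mice TPM was planned for, but it holds a score, exp(log2(TPM + 1)) - 1, so it was converted back, after which 20288 of 20368 genes were within 0.2 TPM of their summed transcripts in every mouse and the members within 0.08 TPM. Converted columns summed to 990305 to 993726 TPM. Depth and counting error are unknown.

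Each mouse was 1 sample, with groups from the labels. limma 3.58.1 (R 4.3.3) was fitted to log2(TPM + 1) with all 6 ages modelled together and an intensity trend in the prior variance, and p-values were adjusted over all genes by the Benjamini-Hochberg method (threshold 0.05). Transcript use was tested by limma on percentages (threshold of 20 points). The paralog difference was tested by two-sided exact permutation over mice. The other computations used Python 3.11.15, pandas 2.3.3, scipy 1.17.1 and Biopython 1.88. Methods were tested on simulated data. The row of Cmtm1 was identified by its transcripts.

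All 8 members are named, with Cklf, Cmtm5, the nearest neighbours, up to 4 called genes of largest change per list and the 3 protein-coding genes most like a member. In the lists, genes that were not called and that are named were chosen after their values were seen, as was the limit of 2 genes named as likest to Cmtm7 and Cmtm8. The members and lists were chosen with earlier results of these data known. Mouse numbers of different ages mark different mice (57 pairs of equal number, correlation of deviations -0.33 to 0.34), so no pairing was used. Alternatives covered the pseudocount, scaling factors, quantile normalization, filters, ages in the model, mice 1 to 3, and leaving out each sample.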

Additional observations from a re-analysis of the deposited data

Results flagged for a closer look

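In sets of 4 or 5 samples, 47 sets of a member and a group were examined for a sample far from the others relative to the range of its group, and 5 stood out. Chance gives about 5% of sets without ties, but in 4 of these 5 all other samples were at 0, where a single value stands out by construction and that rate does not apply. At 10 dpp a single mouse had a value for each of the rising genes and the other 4 were at 0, with 0.16 TPM of Cmtm1 in mouse 1, 0.24 TPM of Cmtm2a in mouse 2 and 0.30 TPM of Cmtm2b in mouse 2. At 14 dpp mouse 2 had 67.57 TPM of Cmtm3 and the other 4 mice had 54.9 to 58.5 TPM. Among the adult samples 1 had 0.37 TPM of Cmtm8 and the other 3 were at 0.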

How the results depend on the processing

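Of 1265 values computed under the alternatives, 11 moved across a threshold or by over 1.5 times and 1 other had the opposite sign. That 1 is the paralog difference between 16 and 18 dpp, set against the main value between 10 and 18 dpp. It is thus another comparison and no recomputed result changed sign. The paralog difference in log2(TPM + 1) was 0.58 with mice 1 to 3 alone (exact permutation p = 0.1, the smallest possible there) and 0.65 with a replicate block (exact permutation p = 0.0625, again the smallest possible). Between 16 and 18 dpp without a pseudocount, chosen after seeing the data, it was -0.0052 (exact permutation p = 0.960). The number of members called from 10 to 12 dpp was 2, but 4 with only these ages in the model and 1 with mice 1 to 3, where Cmtm7 had -0.47 (limma adjusted p = 0.118). The call of Cmtm6 from 14 to 16 dpp was also lost with only those ages (adjusted p = 0.0651) or without mouse 1 or mouse 5 of 16 dpp (adjusted p = 0.05001 and 0.0522). Cmtm8 passed from 8 to 18 dpp under quantile normalization alone (-0.69, adjusted p = 0.0463). The causes were not tested. Median-of-ratios factors shifted the median of all genes by 0.14 from 8 to 18 dpp and quantile normalization by -0.17, and no called member changed direction under either.

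The replicate block moved no count of limma calls, and 7 of 26 mice were most like a mouse of their own number. Mice 6 and 7 of 14 dpp have no partner and did not contribute to it. Leaving out 1 mouse at a time, the paralog difference was 0.61 to 0.67, members called from 14 to 16 dpp 4 to 5 and from 16 to 18 dpp 7 to 8. TPM without read counts limits what can be said of values under 1 TPM.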
